A study of Ovis aries with 16 samples.

Results

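The locus described here is the stretch of sheep chromosome 1 that holds pyridoxal kinase (PDXK) and the long intergenic non-coding RNA ENSOARG00000025638. Its members were the methylation peaks that overlapped the gene span of the lincRNA, from 261789777 to 261885079 on Oar_v3.1, extended by 20000 bp on each side. Position columns in the study's list of regions gave this span for the lincRNA and none for PDXK, so the span rests on the lincRNA, which the study describes as overlapping PDXK, RRP1B and HSF2BP. Extended in this way, the locus ran from 261769777 to 261905079, a length of 135303 bp. Of 6410742 peaks deposited for the series, 844 fell in the locus. Merging peaks of the 16 fetuses that shared at least 1 bp gave 64 regions in the locus out of 706111 in the genome.

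DNA came from fetal longissimus dorsi (LD) muscle of 16 fetuses of Polypay ewes. The ewes received either an alfalfa haylage diet, labelled Hay (8 fetuses), or a limited corn diet with some haylage and a supplement, labelled Corn (8 fetuses), from mid-gestation until necropsy late in gestation. By the study's list of fetuses, the 8 hay fetuses were all twins from 4 ewes, and the 8 corn fetuses, 6 of them twins, came from 5 ewes. Dam, sex and sequencing lane are not tied to the numbered samples in the labels, so P-values treat fetuses as separate, and they are too small if twins resemble each other. The labelled tissue could not be checked against marker genes, because the data hold methylation peaks and no expression.

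Methylation of cytosine at CpG sites is the DNA mark that a methyl-binding domain (MBD) protein holds during enrichment. A peak therefore marks a stretch called as enriched for methylated DNA, and gives no count of methylated CpG sites. PDXK phosphorylates vitamin B6 to form pyridoxal phosphate, a cofactor of many enzymes of amino acid metabolism. Among these is serine hydroxymethyltransferase, which feeds one-carbon units into the folate cycle and so towards methionine and the methyl donor S-adenosylmethionine. RRP1B encodes a nucleolar protein with a role in ribosome biogenesis, and HSF2BP encodes a factor of meiotic recombination. In the RefSeq annotation of a different sheep assembly (ARS-UI_Ramb_v3.0), used here for gene order only, the order along chromosome 1 is HSF2BP, RRP1B, the lncRNA LOC114110470 and PDXK, with RRP1 and AGPAT3 farther on. No entry of that annotation was matched to ENSOARG00000025638, whose function is not known.

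Peaks were scored as −log10 of the p-value deposited with each. The number of peaks per fetus was between 261331 and 519923 over the whole genome. Read depth behind a peak is unknown, so absence of a peak does not show absence of methylation.

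The locus was rich in methylation peaks in every fetus. Peak density was 39.0 ± 6.50 peaks per 100 kb (SD, n = 16), against 15.5 ± 2.98 per 100 kb over the genome (SD, n = 16). Density was between 2.20 and 2.99 times the genome value within a fetus, and it was higher in 16 of 16 fetuses (exact sign-flip permutation test, two-sided, p = 3.05e-05, the smallest that 16 fetuses allow). Peaks covered 30.2% ± 4.54 of the locus (SD, n = 16) and 8.69% ± 1.40 of the genome (SD, n = 16), which was higher in the locus in 16 of 16 fetuses (exact sign-flip permutation test, p = 3.05e-05). Sign flips over fetuses ask whether the fetuses agree about this locus, and not how unusual it is among loci. The same limit holds for the sign-flip tests between loci below.

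Other gene loci of the study were built from the same columns for comparison. The locus of LPAR3, a receptor for lysophosphatidic acid, had 26.6 fewer peaks per 100 kb than the lincRNA locus, and that of NBEA, a regulator of protein targeting at synapses, had 28.9 fewer. In each case the lincRNA locus was higher in 16 of 16 fetuses (exact sign-flip permutation test, p = 3.05e-05). The order against the locus of the lipid droplet genes PLIN5 and PLIN4 was not stable. With 20000 bp flanks the difference, lincRNA locus minus PLIN5-PLIN4, was -4.04 peaks per 100 kb, and the lincRNA locus was higher in 4 of 16 fetuses (exact sign-flip permutation test, p = 0.0279). Without flanks it had 6.07 more (exact sign-flip permutation test, p = 0.0240). With 20000 bp flanks, peaks covered 30.2% ± 4.54 of the lincRNA locus and 30.1% ± 4.87 of the PLIN5-PLIN4 locus (SD, n = 16 each). Coverage was higher in the lincRNA locus in 8 of 16 fetuses (exact sign-flip permutation test, p = 0.939).

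**Figure D1:**
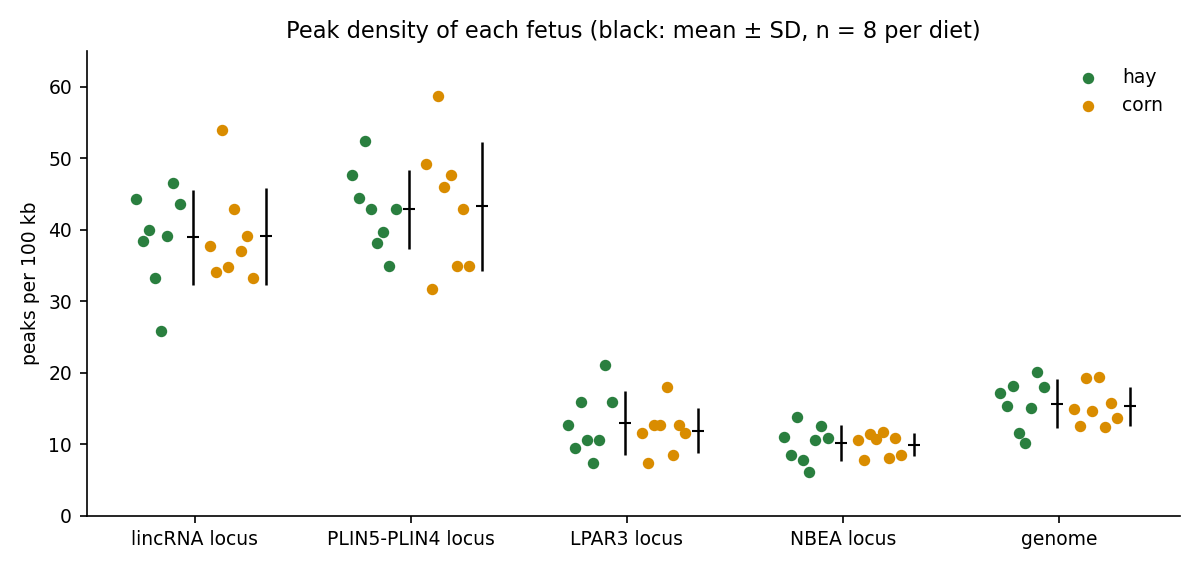
Peaks per 100 kb (vertical axis) in the lincRNA locus, 3 other gene loci and the whole genome; each point is a fetus, green for hay and orange for corn, with the mean ± SD (n = 8 per diet) in black. The lincRNA locus, at 39.0 peaks per 100 kb on average, sits far above the genome at 15.5 and beside the PLIN5-PLIN4 locus at 43.0.

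Within the locus the peaks lay in dense blocks separated by sparse stretches. Of the 64 merged regions, 16 had a peak in every fetus, 33 in 2 to 15 fetuses and 15 in a single fetus. The share with a peak in every fetus was 25% in the locus and 12.5% in the genome. Among consensus regions, those called in 2 or more fetuses, it was 32.7% in the locus (16 of 49) and 17.3% in the genome. Of the 16 regions found in every fetus, 14 touched the lincRNA span, 2 lay in the flank beyond its right end and 0 in the flank beyond its left end, where left and right follow increasing coordinates. Regions with a peak in every fetus had widths from 1062 to 9336 bp and top scores from 2.97 to 7.29. Regions with a peak in a single fetus had widths from 102 to 352 bp and top scores from 0.919 to 1.47. Part of this contrast is built in, because a merged region spans the peaks of all its fetuses and takes their highest score. All merged regions together covered 55.4% of the locus.

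The widest region, and the strongest by the median over 16 fetuses, lay within the lincRNA span from 261821616 to 261830951. Its highest peak score was 2.80, 3.82 and 6.84 in hay (lowest, median and highest of 8 fetuses) and 2.53, 4.49 and 7.12 in corn. The diets overlapped over most of that range, and the median over all fetuses, 4.13, stood above that of 98.9% of consensus regions in the genome. Among the genome's regions with a peak in every fetus, it stood above 93.7%. The region was broken into 3 to 11 peaks per fetus that covered from 3560 to 8450 bp. It held the strongest peak of the locus in 6 of 16 fetuses. A narrower region from 261798521 to 261800238 held the strongest peak in 4 others, and every fetus had 1 unbroken peak there. It had the highest single peak of the locus and the higher corn median of the pair. Scores in that narrower region were 2.08, 3.12 and 5.51 in hay and 2.43, 5.21 and 7.29 in corn (lowest, median and highest), again overlapping.

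Inside the lincRNA span, towards its right end, stood a further block, made of a region from 261872001 to 261877213 and another from 261877862 to 261883582. The first scored 2.59, 3.36 and 4.08 in hay and 2.96, 4.06 and 5.87 in corn (lowest, median and highest). The second scored 2.63, 3.02 and 4.35 in hay and 2.28, 3.34 and 5.68 in corn. In the 10 kb that hold most of this block, peaks covered 76.1% ± 8.15 of bases in hay and 79.9% ± 8.09 in corn (SD, n = 8 each). The fifth region of the strongest set, from 261804286 to 261806951, scored 1.51, 2.54 and 5.49 in hay and 2.598, 3.95 and 4.97 in corn. At none of the 16 regions found in every fetus did the scaled scores differ between diets at an exact permutation p under 0.05. Differences in log2(score + 1), hay minus corn after scaling between fetuses, went from -0.26 to 0.20, with 9 higher in hay and 7 higher in corn, and the smallest p was 0.0656 (exact permutation test, two-sided, 12870 ways to split the fetuses). With unscaled scores 1 of the 5 strongest, the region from 261872001, differed by -0.25 (exact permutation test, p = 0.0472). By covered bases, the region from 261813816 to 261817089, picked out after its values were seen, had 2288 ± 322 bp in hay and 2621 ± 210 bp in corn (SD, n = 8 each; exact permutation test, p = 0.0294, the only p under 0.05 among 48 regions compared by covered bases, with a Benjamini-Hochberg adjusted p of 1).

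**Figure D2:**
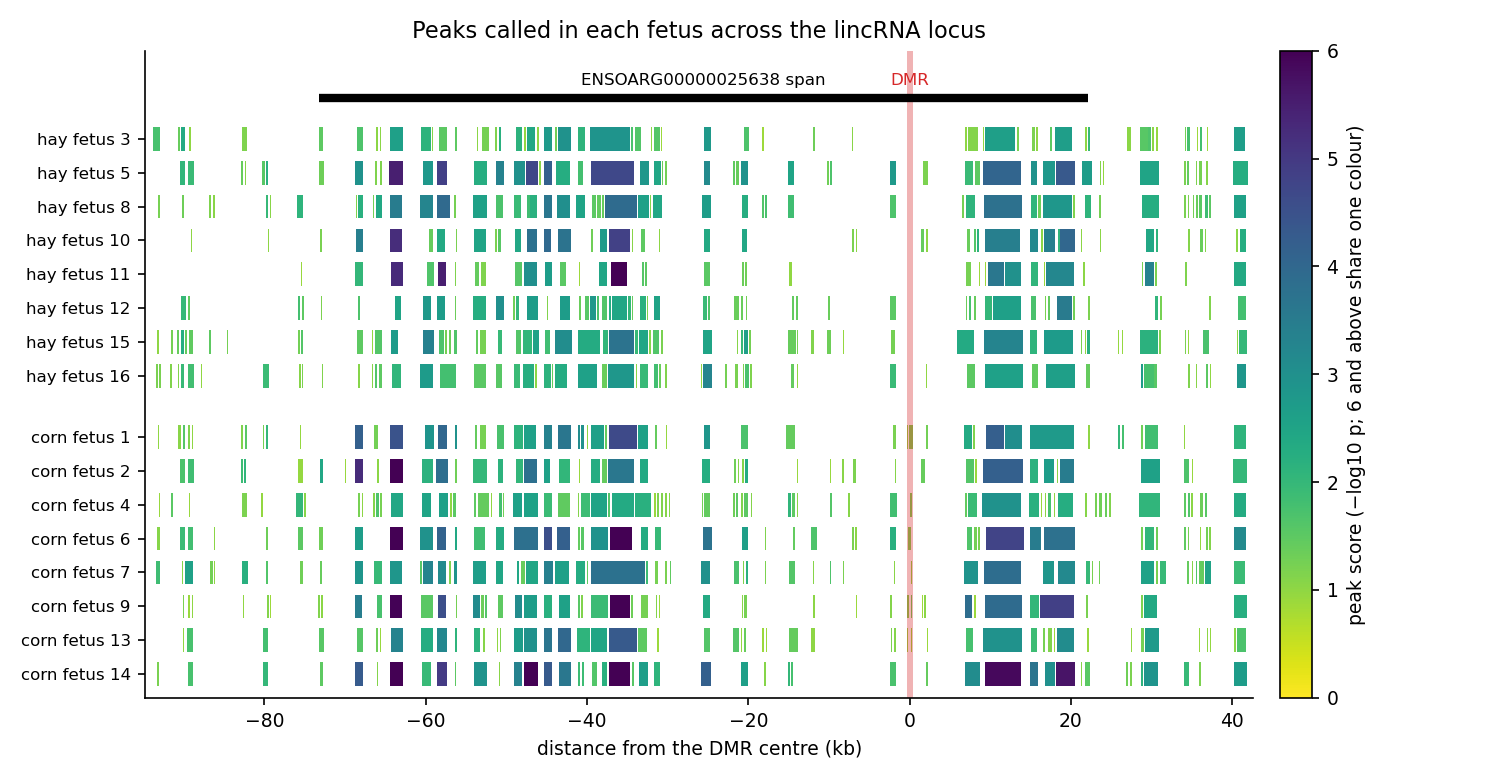
Peaks of each fetus (rows, hay above and corn below) by distance from the centre of the differentially methylated region in kb; bars are called peaks coloured by score (−log10 p), the black bar is the lincRNA span and the red band the differentially methylated region. The strong blocks recur in all 16 fetuses, and the red band crosses a sparse stretch with a peak in 6 corn fetuses and 1 hay fetus.

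The differentially methylated region (DMR) that brought this locus into the study lies from 261862656 to 261863385, 730 bp long, 72.9 kb from the left end and 21.7 kb from the right end of the lincRNA span. Because the study selected it for a contrast between diets in the fetuses used here, its values are given as a description with no test. The study also sequenced part of this DMR after bisulfite conversion, in DNA pooled by diet and sex. It reported higher methylation in the corn pools of both sexes, and a correlation of PDXK expression with methylation here. Neither result was tested here. A peak was called in 6 of 8 corn fetuses and in 1 of 8 hay fetuses. Scores in corn were 1.21 in fetus 1, 1.24 in fetus 4, 1.19 in fetus 6, 1.024 in fetus 7, 1.38 in fetus 9 and 0.936 in fetus 13, with no peak in fetuses 2 and 14. The only hay fetus with a peak was fetus 5, at 0.973, which lies within the range of the corn peaks. The log2 score was 0.80 ± 0.52 in corn and 0.10 ± 0.29 in hay (SD, n = 8 each), a difference of -0.70 (hay minus corn).

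These peaks were among the weaker and narrower ones. Counted singly, 10 peaks lay at the DMR, with scores from 0.912, above 1.35% of all peaks of the series, to 1.38, above 43.0%. The median score was 1.09 over these 10 peaks, 1.57 over all peaks of the locus and 1.47 over all peaks of the series. Peak bases at the DMR in a fetus with a call were between 118 and 570. The call was split into 2 peaks in corn fetuses 1, 9 and 13. In fetus 1 they reached both edges of the DMR, while the single peak of hay fetus 5 began 474 bp inside its left edge. Counting only peaks above the 25th percentile of score left 4 corn and 0 hay fetuses with a call. Hay fetuses without a peak had from 261331 to 519923 peaks genome-wide, the 6 corn fetuses with one from 319977 to 499815, and the 2 corn fetuses without one 325869 and 353940, both among the 3 lowest totals in corn. The part of total peak number in this call was not tested.

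**Figure D3:**
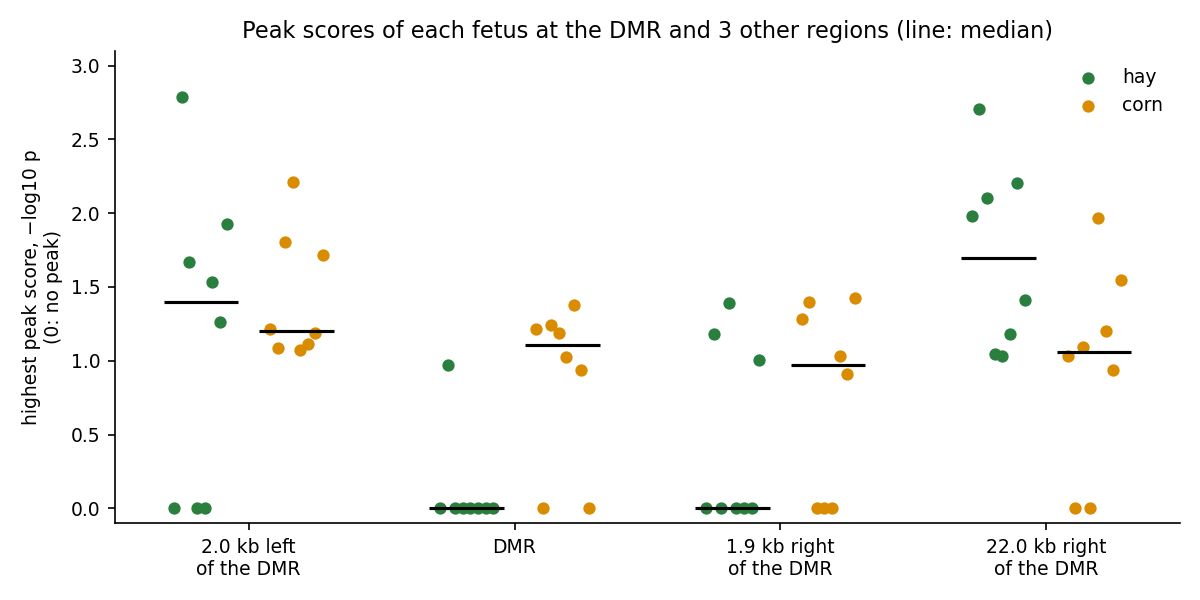
Highest peak score (−log10 p, 0 for no peak) of each fetus at the DMR and at 3 other regions named by their distance from it, green for hay and orange for corn, with the median as a line. At the DMR 7 hay fetuses sit at 0 and 6 corn fetuses lie between 0.936 and 1.38. The diets overlap at the other regions, though hay fetuses 3, 5, 8 and 15 scored above every corn fetus at the one 22.0 kb right of the DMR.

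The DMR sat in a sparse stretch of 25.7 kb between the nearest regions with a peak in every fetus. This stretch held 11 merged regions, of which 10 were consensus regions. Apart from the DMR, 6 of the 9 others had a peak in more corn than hay fetuses, 2 in equal numbers and 1 in fewer. Over all consensus regions of the genome, 32.6% had a peak in more corn fetuses, 38.4% in equal numbers and 28.9% in more hay fetuses. That equal share takes in the 17.3% of consensus regions with a peak in every fetus. The stretch leaves such regions out by its definition, so these shares are not a like comparison. The longest stretch of the locus with no peak in any fetus, 4028 bp from 261856534 to 261860561, lay here, to the left of the DMR.

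The nearest consensus regions on both sides of the DMR asked whether the diet difference extended beyond it. The region on the left, from 261860562 to 261861411, lay 1244 bp away and had a peak in 8 corn and 5 hay fetuses (Fisher's exact test, p = 0.200). Its scores were 0, 1.40 and 2.79 in hay and 1.07, 1.203 and 2.21 in corn (lowest, median and highest), so the hay fetuses held both the strongest peak and the missing calls. The log2 score differed by -0.23 ± 0.27 (limma SE; exact permutation test, p = 0.444). The region on the right, from 261864451 to 261865295, lay 1065 bp away and had a peak in 5 corn and 3 hay fetuses (Fisher's exact test, p = 0.619). Scores there were 0, 0 and 1.39 in hay and 0, 0.973 and 1.43 in corn. The difference was -0.24 ± 0.36 (limma SE; exact permutation test, p = 0.497). Both differences were smaller than the spread within a diet. All 7 fetuses with a peak at the DMR also had one at the region on its left, as did 6 of the 9 without. At the region on its right, 4 of the 7 had a peak (corn fetuses 1, 9 and 13 and hay fetus 5) and so did 4 of the 9.

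**Figure D4:**
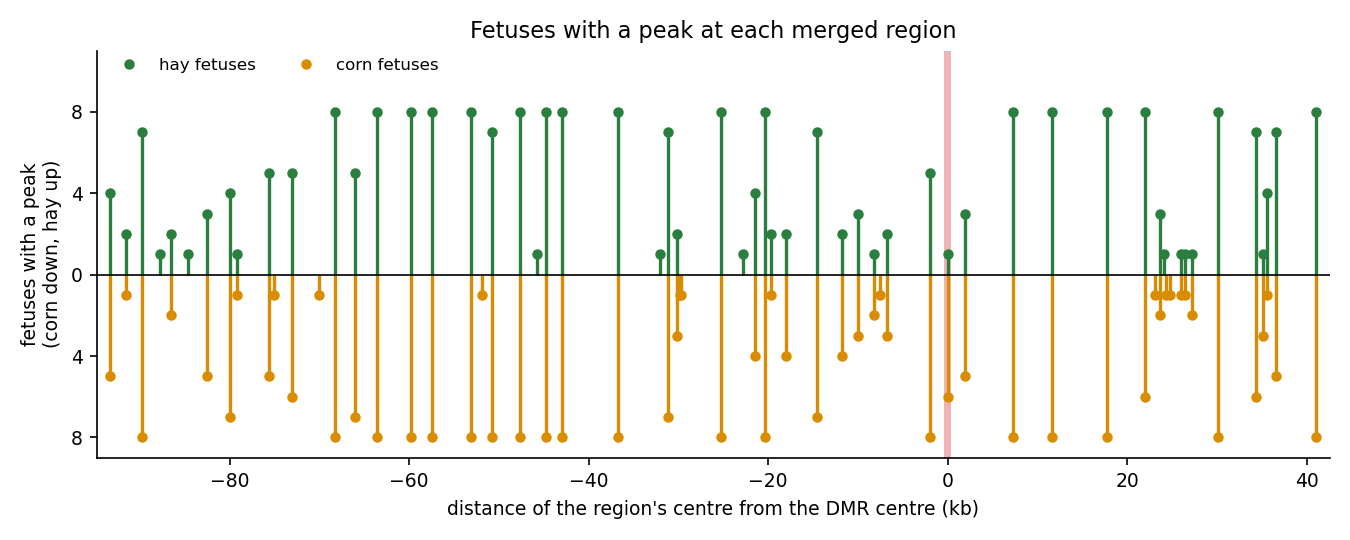
Number of fetuses with a peak (vertical axis, hay upward in green and corn downward in orange) at each of the 64 merged regions by distance of the region's centre from the DMR centre in kb; the red band is the DMR. The DMR has 6 corn and 1 hay fetuses, and 16 regions reach 8 in both directions.

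Across the whole locus no difference between diets in the amount of peaks reached an exact permutation p under 0.05. Hay fetuses had 52.6 ± 9.05 peaks in the locus and corn fetuses 52.9 ± 9.16 (SD, n = 8 each; exact permutation test, two-sided, p = 0.979). Per 100000 peaks of the fetus the value was 13.1 ± 1.08 in hay against 13.4 ± 1.30 in corn (p = 0.639 by exact permutation). Covered bases came to 38948 ± 7872 in hay against 42696 ± 3276 in corn (p = 0.230 by exact permutation). Peak width had a median of 448 ± 182 bp in hay against 474 ± 163 bp in corn (p = 0.762 by exact permutation). Covered bases were fewer in hay over the whole genome too, at 8.38% ± 1.66 against 9.002% ± 1.10 (exact permutation test, p = 0.385).

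Region by region, limma with Benjamini-Hochberg adjustment over all 512238 consensus regions called 0 of the 48 in the locus outside the DMR at an adjusted p under 0.1, against 3 regions or 0.000586% in the genome (0.000195% with hay higher and 0.00039% with corn higher). The smallest adjusted p in the locus was 0.919 by limma. The DMR was left out of these counts because the study had chosen it. At an unadjusted limma p under 0.05, 1 of the 48 was called with hay higher and 0 with corn higher, against 1.43% and 1.73% of the genome's regions, or 3.16% in all. Corn had the higher mean at 24 of the 48 regions, against 46.1% of the genome's regions. The median difference was 0.005 over the 48 regions and 0.0157 over all consensus regions. By presence, Fisher's exact test gave a p under 0.05 at 0 of the 48 regions, with a smallest p of 0.200, against 0.59% in the genome (0.149% with more hay and 0.441% with more corn fetuses).

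The region with hay higher crossed the right end of the lincRNA span, from 261884275 to 261885743. A peak was called there in all 8 hay fetuses and in 6 of the 8 from corn-fed ewes. Scores were 1.03, 1.70 and 2.70 in hay and 0, 1.06 and 1.97 in corn (lowest, median and highest), so the diets overlapped. Hay fetuses 3, 5, 8 and 15 scored above every corn fetus, although fetus 3 at 1.982 was barely above the highest corn fetus at 1.970, and corn fetuses 2 and 6 had no peak. The log2 score was 1.47 ± 0.30 in hay and 0.85 ± 0.55 in corn (SD, n = 8 each), a difference of 0.62 ± 0.24 (limma SE). The exact permutation test gave p = 0.00948, which was the smallest among the 48 regions tested outside the DMR, and the limma adjusted p was 0.919. With peaks above the 25th percentile of score only, the difference was 0.60 and the exact permutation p was 0.145.

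The remaining regions named by smallest p lay on both sides of zero, and none had an exact permutation p under 0.05 with all fetuses included. Leaving out 1 fetus brought some under it, at 261903096 without corn fetus 4 (0.0138) or hay fetus 5 (0.0232), at 261842077 without hay fetus 11 (0.0389) and at 261872001 without corn fetus 13 (0.0392), all exact permutation p. Those with hay higher were from 261903096 to 261904922 in the right flank (0.20, exact permutation test, p = 0.0656), from 261842077 to 261843138 (0.19, exact permutation p = 0.108) and from 261891430 to 261894839 (0.16, exact permutation p = 0.152). Those with corn higher were from 261794203 to 261795294 (-0.26, exact permutation p = 0.184), a region of the right block described above from 261872001 (-0.07, exact permutation p = 0.241) and, in the left flank, from 261780121 to 261780993 (-0.39, exact permutation p = 0.245) and from 261782633 to 261783579 (-0.37, exact permutation p = 0.266). The region from 261782633 had a peak in 7 corn and 4 hay fetuses.

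**Figure D5:**
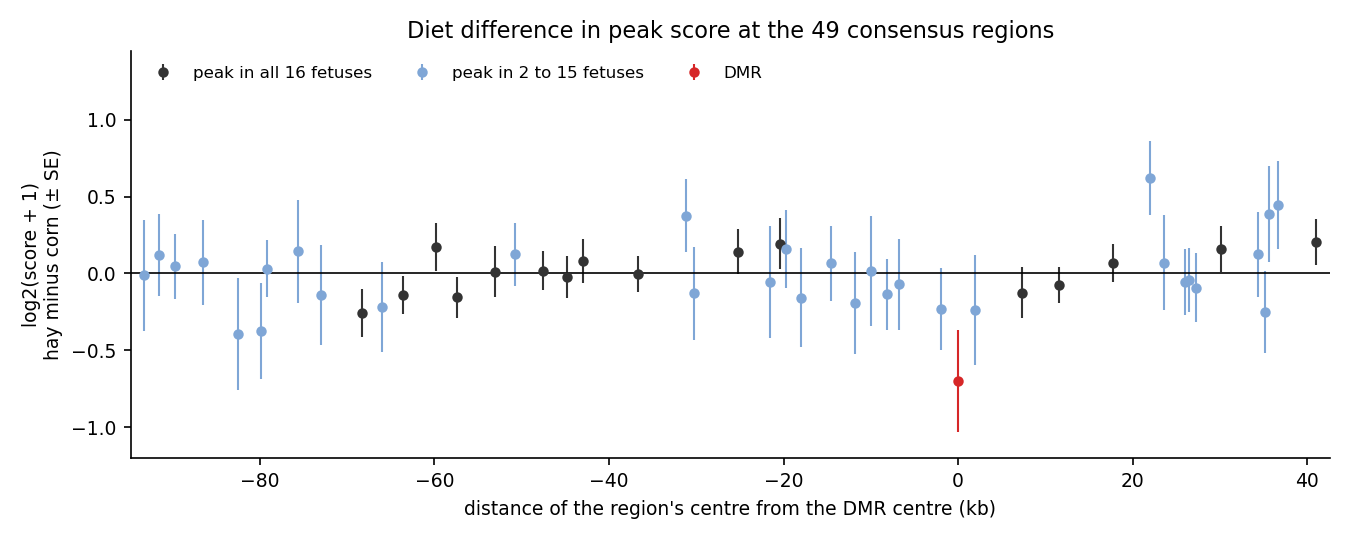
Difference in log2(score + 1) between diets, hay minus corn, with the limma SE (vertical axis) at the 49 consensus regions by distance from the DMR centre in kb; black marks regions with a peak in all 16 fetuses, blue those in 2 to 15 and red the DMR. Black points stay between -0.26 and 0.20, the DMR is at -0.70 and the region crossing the right end of the lincRNA span is at 0.62.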

How the data were processed

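MBD-enriched DNA of 16 fetuses was sequenced by the authors, who used Trimmomatic 0.33 for trimming, BWA-mem 0.7.15 for alignment to Oar_v3.1, Picard 1.107 to drop duplicates, and then ChIPseeqer on each fetus (101 bp reads, 250 bp fragments) for peaks. The authors deposited for each peak its position and 1 value, at most 0.1352, read here as a p-value. No threshold, height or depth is given in the sources used here. Values of 0 were scored as 100.

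Peaks sharing at least 1 bp were merged. The highest score per fetus and region was divided by a median-ratio factor (0.7647 to 1.383, over the 88488 regions called in all fetuses) and taken as log2(score + 1), with 0 for no peak. Limma 3.58.1 (R 4.3.3; lmFit, eBayes with trend) was fitted to all 512238 consensus regions. Genome length was taken as the sum of the last peak end on each chromosome. Single values were compared by exact permutation tests over fetuses, and loci by exact sign flips within fetuses (Python 3.11.15, numpy 2.4.6, scipy 1.17.1, pandas 2.3.3). Limma was tested on simulated data with shifts far larger than any difference in this locus, and the permutation tests only for false calls. Neither check shows the power to find differences of the size seen here. Named regions were the DMR, its neighbours, the 5 strongest of those with a peak in every fetus, the 4 with the smallest exact permutation p in each direction and any with a Fisher p under 0.05. The locus, its members and these lists were chosen with earlier results of these data known. A list of vitamin B6 and one-carbon genes was not analysed here, since no Oar_v3.1 annotation was used. The study's DiffBind columns of fold and p-value were not used.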

Additional observations from a re-analysis of the deposited data

Results flagged for a closer look

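Of 44 sets of 8 fetuses examined for a single distant value, 2 held one, where chance gives about 1 in 20, or 2.2. Corn fetus 4 had 73 peaks in the locus, and the next corn fetus had 58. At the DMR, hay fetus 5 was the only hay fetus with a peak, with a score of 0.973 against 0 in the others.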

How the results depend on the processing

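The locus regions called by limma stayed at 0 under every alternative run. An unadjusted limma p under 0.05 was reached at 1 to 5 regions (5 with unscaled scores). These counts take in the DMR, which the study had chosen, so its part in them is no test of it. Over the genome limma called 0 to 52 regions, against 3 as reported, with 46 for unscaled scores, 43 for all merged regions and 43 with total peaks as covariate. The difference at the DMR was corn-higher under each alternative, at -0.1908 with a pseudocount of 5, -1.089 with 0.5 and -0.8153 to -0.6265 when each fetus was left out in turn. The study chose the DMR for its diet contrast in these fetuses, so this direction is a description and not a test. Restricting to peaks above the 25th percentile of score gave 0 regions called by presence, the same as with all peaks outside the DMR. It turned the small differences in locus peak number (1.25), locus share of peaks (0.7868) and the region left of the DMR (0.1545), none past p of 0.05 (exact permutation test). Leaving out the peaks of the DMR turned the locus peak number to 0.75, and leaving out a fetus gave -1.732 to 2.625 for the number and -0.5571 to 0.03255 for the share, -5104 to -2225 bp for covered bases, -0.3455 to -0.09756 for the region left of the DMR and -0.359 to -0.1513 for the region right of it, which came to -0.001511 with peaks above the 25th percentile. Against PLIN5-PLIN4, in alternatives chosen after seeing the data, the difference was 6.07 without flanks, 2.3 with flanks of 50000 bp, -8.169 with peaks above the 25th percentile (exact sign-flip p = 0.000794), and -5.088 to -3.481 without 1 fetus, with an exact sign-flip p above 0.05 without corn fetuses 1 or 6 or hay fetuses 8, 10 or 11 (highest 0.0542). Differences near 0 at single regions also changed sign. At 261877862 to 261883582 it was -0.1101 with unscaled scores. At 261821616 to 261830951 it was 0.001368 with a pseudocount of 5 and 0.006784 with peaks above the 25th percentile, and -0.1065 to 0.04317 without 1 fetus. The region crossing the right end of the lincRNA span, named for its small p, had an exact permutation p of 0.002642 to 0.02284 without 1 fetus. This p was 0.009479 with a pseudocount of 5, 0.009635 with 0.5, 0.0449 with unscaled scores and 0.145 with peaks above the 25th percentile. By covered bases the same region had 519 ± 372 bp in hay and 323 ± 285 bp in corn (SD, n = 8 each, exact permutation p = 0.262). No paired analysis was possible because, by the study's list of fetuses, no ewe had fetuses in both diets.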
